A study of Mus musculus with 5 samples.

Results

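Acetylation of histones was examined at the promoters of 45 DNA replication genes in memory-type CD8+ T cells (TM cells) by ChIPseq, out of 21938 protein-coding genes scored in the same way. The genes were chosen by name, for the step of replication they serve. 15 act in origin licensing, 6 in origin firing, 20 at the polymerases and the fork, and 4 in the supply of nucleotides. A gene was scored as carrying a promoter peak in a library where a called peak lay within 3000 bp of any of its annotated transcription start sites. The rule uses no measured value, but the genes were chosen with earlier results of these data known.

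5 libraries were analysed, 2 of WT cells (named WT 1 and WT 2 after their replicate numbers) and 3 of TPdh-/- cells (TPdh-/- 1, 2 and 3). TPdh-/- mice carry a conditional allele of Pdha1, which encodes the E1 alpha subunit of the pyruvate dehydrogenase complex, and a Cre transgene driven by the Cd4 promoter, which acts in T cells, while WT cells carry the functional gene. Per the methods of the study, mice were between 8 and 12 weeks old, and in both genotypes cells were activated for 3 days and then kept for 4 days with IL-15 at 10 ng/mL, the cytokine that drives memory-type differentiation. An antibody to acetylated histones was used throughout, which the sample labels tie to lysine 18. The labels do not say whether replicates came from separate animals, so the spread between libraries may be technical in part.

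Before a cell divides, its genome must be copied once. In G1 the origin recognition complex (Orc1 to Orc6) with Cdc6 and Cdt1 loads the Mcm2 to Mcm7 helicase onto origins, a step named licensing, and geminin (Gmnn) blocks Cdt1 until division is over. In S phase Mcm10, Cdc45 and the GINS complex turn the loaded helicase into a moving one, after which polymerases alpha, delta and epsilon copy the strands with the help of the sliding clamp Pcna and its loader, the Rfc complex. Many of these genes are known targets of E2F factors, and they are expressed in proliferating T cells. Acetylated histones mark promoters that are active or open to activation.

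Promoter sequences are shown for 6 genes that stand for the main classes of peaks described below. Cdc45 had the highest mean percentile of peak strength of all 45 genes. Pola2, Pold2, Rrm1 and Tyms were called in both WT libraries and none of the TPdh-/- ones, and Mcm2 in no library. Each sequence runs from 170 bases before to 29 bases after the start site in RefSeq (GRCm38.p6), 5′ to 3′ on the strand of the gene. Capitals mark the GC box (GGGCGG) and the CCAAT box (CCAAT) on either strand. The stretches are chr16:18811943-18812142 (minus strand) for Cdc45, chr19:5964177-5964376 (minus strand) for Pola2, chr11:5878227-5878426 (minus strand) for Pold2, chr7:102441525-102441724 (plus strand) for Rrm1, chr5:30073596-30073795 (minus strand) for Tyms and chr6:88898751-88898950 (minus strand) for Mcm2.
Cdc45: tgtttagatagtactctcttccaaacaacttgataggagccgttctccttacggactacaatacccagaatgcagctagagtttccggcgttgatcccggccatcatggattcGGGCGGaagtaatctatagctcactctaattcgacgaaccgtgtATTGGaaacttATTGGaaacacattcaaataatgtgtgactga
Pola2: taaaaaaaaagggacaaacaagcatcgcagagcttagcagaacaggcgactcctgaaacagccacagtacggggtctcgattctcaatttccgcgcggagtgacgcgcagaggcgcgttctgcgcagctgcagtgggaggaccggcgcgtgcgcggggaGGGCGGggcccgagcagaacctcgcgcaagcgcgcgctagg
Pold2: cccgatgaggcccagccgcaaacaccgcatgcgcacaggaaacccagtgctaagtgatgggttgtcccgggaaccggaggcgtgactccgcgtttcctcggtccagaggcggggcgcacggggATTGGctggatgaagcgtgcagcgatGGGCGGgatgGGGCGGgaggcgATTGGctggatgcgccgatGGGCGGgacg
Rrm1: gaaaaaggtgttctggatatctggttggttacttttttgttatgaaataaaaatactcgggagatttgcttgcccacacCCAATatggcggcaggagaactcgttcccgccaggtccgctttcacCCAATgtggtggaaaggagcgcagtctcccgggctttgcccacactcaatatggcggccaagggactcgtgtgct
Tyms: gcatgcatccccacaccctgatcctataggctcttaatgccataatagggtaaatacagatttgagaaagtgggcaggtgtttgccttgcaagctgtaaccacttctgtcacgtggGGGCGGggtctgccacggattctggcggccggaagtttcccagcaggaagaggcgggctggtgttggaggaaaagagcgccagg
Mcm2: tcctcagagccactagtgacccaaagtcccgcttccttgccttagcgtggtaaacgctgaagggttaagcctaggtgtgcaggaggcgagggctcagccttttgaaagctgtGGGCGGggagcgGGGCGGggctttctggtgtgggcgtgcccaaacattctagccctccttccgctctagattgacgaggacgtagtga

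A further set shows the letters that E2F factors are known to bind. The spellings TTTCCCGC, TTTCGCGC, TTTGCCGC and TTTGGCGC were searched on both strands, and these 4 genes, chosen after the matches were seen, hold at least 2 of them. Capitals mark the matches, which overlap each other in Mcm5 and in the first stretch of Mcm6. The stretches are chr8:75109339-75109538 (plus strand) for Mcm5, chr1:128359676-128359875 (minus strand) for Mcm6, chr5:138171854-138172053 (minus strand) for Mcm7 and chr5:151651179-151651378 (minus strand) for Rfc3.
Mcm5: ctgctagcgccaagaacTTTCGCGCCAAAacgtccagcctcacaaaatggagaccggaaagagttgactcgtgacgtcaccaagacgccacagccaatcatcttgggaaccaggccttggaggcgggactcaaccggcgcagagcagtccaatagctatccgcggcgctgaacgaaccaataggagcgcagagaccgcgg
Mcm6: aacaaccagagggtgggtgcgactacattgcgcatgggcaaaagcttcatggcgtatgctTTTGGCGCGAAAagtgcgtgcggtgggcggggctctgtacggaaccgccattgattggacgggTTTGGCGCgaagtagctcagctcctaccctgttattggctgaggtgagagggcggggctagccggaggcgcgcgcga
Mcm7: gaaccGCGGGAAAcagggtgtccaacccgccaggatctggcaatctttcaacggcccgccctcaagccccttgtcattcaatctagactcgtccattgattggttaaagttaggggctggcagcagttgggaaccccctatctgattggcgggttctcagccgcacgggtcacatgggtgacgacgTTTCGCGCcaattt
Rfc3: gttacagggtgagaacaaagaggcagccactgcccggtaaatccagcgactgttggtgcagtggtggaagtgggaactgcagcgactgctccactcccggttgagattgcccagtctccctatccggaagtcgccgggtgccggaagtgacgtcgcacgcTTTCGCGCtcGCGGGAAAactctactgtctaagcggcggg

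Most replication genes carried a promoter peak in WT 1, and fewer than 20 did in each of the other 4 libraries. WT 1 had a peak at 38 of the 45 genes (84.4%), and WT 2 at 19 (42.2%). TPdh-/- 1 and 2 had a peak at 10 genes each (22.2%), and TPdh-/- 3 at 18 (40%). The mean was 28.5 ± 13.4 genes in WT (SD, n = 2) and 12.7 ± 4.62 in TPdh-/- (n = 3). The groups did not overlap, but TPdh-/- 3 lay 1 gene below WT 2. Among all protein-coding genes, 42.1% had a promoter peak in WT 1, 24.8% in WT 2, and 15.3%, 16.5% and 27.9% in TPdh-/- 1, 2 and 3. The replication genes therefore lay above the share of all genes in each of the 5 libraries, and both shares were highest in WT 1.

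**Figure D1:**
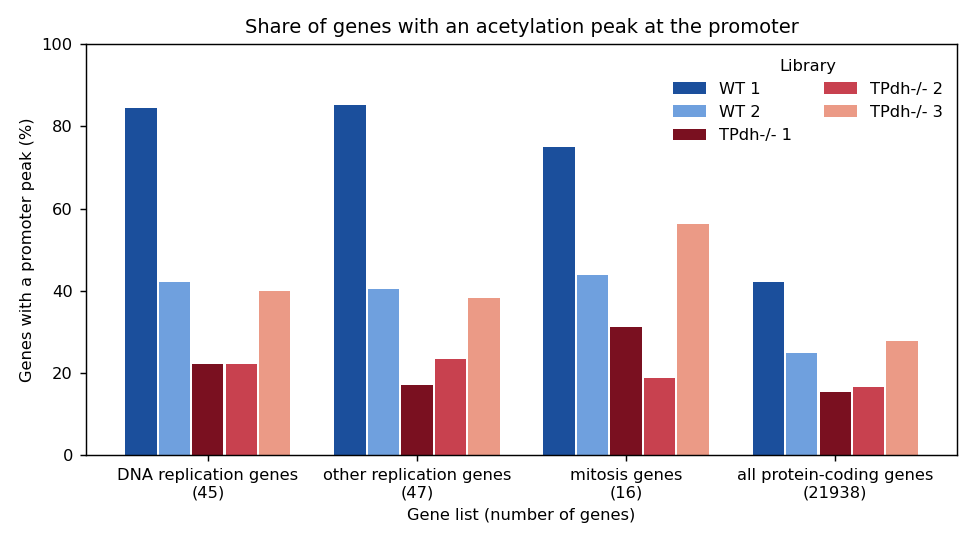
Share of genes with a promoter peak (percent, y axis) in each of the 5 libraries (bars) for the 45 replication genes, 47 other replication genes, 16 mitosis genes and all 21938 protein-coding genes. The replication genes range from 22.2% to 84.4%, and the blue WT 1 bar is the highest in every list.

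The lists themselves differed in length, and their length moved with these counts. MACS2 called 15962 peaks in WT 1, 8859 in WT 2, and 4920, 5419 and 9418 in TPdh-/- 1, 2 and 3. The smallest −log10 q was close to 1 in all lists, and the number of reads behind them is not in the files. The part of list length in the difference between genotypes cannot be told apart from acetylation. When each list was shortened to the 4920 peaks of highest −log10 q, a peak was found at 15 and 10 replication genes in WT and at 10, 9 and 11 in TPdh-/-. The mean difference between WT and TPdh-/- was then 2.5 genes, where it was 15.8 with the full lists. WT 1 alone stood above the other 4 libraries at this length, with 33.3% of the replication genes against 19.9% of all protein-coding genes. In the other 4 libraries the share of the replication genes was 20% to 24.4%, and that of all genes 15.3% to 18.7%.

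**Figure D2:**
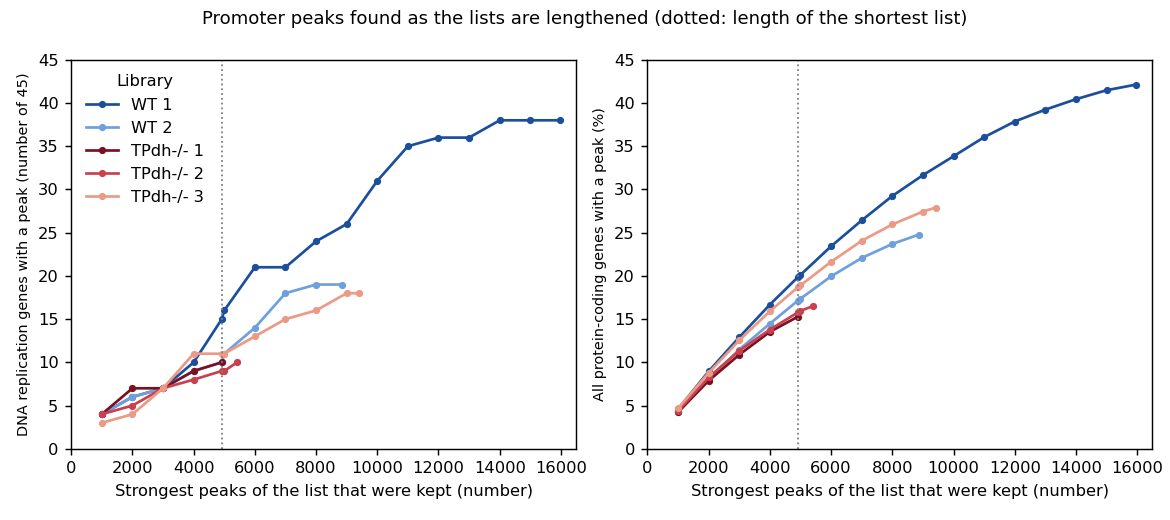
Number of replication genes (left, of 45) and share of all protein-coding genes (right, percent) with a promoter peak as each list is lengthened from its 1000 strongest peaks to its full length (x axis), 1 line per library, with a dotted line at 4920 peaks. The lines lie close together up to 3000 peaks, where each library has a peak at 7 replication genes, and WT 1 rises to 38 genes beyond the length of the other lists.

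At the 3000 strongest peaks, each of the 5 libraries had a peak at 7 replication genes (15.6%), where 10.9% to 12.9% of all protein-coding genes had one. In WT 1 the number of replication genes then rose to 21 genes at 6000 peaks, 31 at 10000 and 38 at 14000, where it stayed to the end of the list. At 8000 peaks, WT 1 had a peak at 24 replication genes, WT 2 at 19 and TPdh-/- 3 at 16.

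Presence over the 5 libraries followed a few patterns. WT 1 alone had a peak at 15 of the 45 genes (33.3%), where this held for 11.2% of all protein-coding genes. They were Cdc6, Gmnn, Mcm3, Mcm5, Gins3, Pola1, Pold1, Pold3, Pole2, Rfc1, Rfc3, Rfc5, Rpa3, Lig1 and Rrm2. 7 genes (15.6%, against 10.9% of all genes) had one in all 5 libraries, namely Orc5, Mcm4, Mcm7, Mcm10, Cdc45, Fen1 and Rpa2. 4 genes (8.89%, against 2.21%) had a peak in both WT libraries and none of the TPdh-/- ones. 7 (15.6%, against 56.7%) had none at all. The reverse pattern, a peak in all TPdh-/- and no WT library, was found at 0 of 45 replication genes and at 0 of all 21938 genes. The other 12 genes had a peak in WT 1 and in some further libraries, so that each of the 38 genes with any peak had one in WT 1. This was close to all protein-coding genes, of which 9493 had any peak and 9242 had one in WT 1.

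Of the 38 genes with a peak in WT 1, 50% also had one in WT 2, where 57.9% of all protein-coding genes with a peak in WT 1 did. The share was 26.3% in TPdh-/- 1, 26.3% in TPdh-/- 2 and 47.4% in TPdh-/- 3, against 36%, 38.6% and 65% of all genes. Each of the 4 shares lay below that of all genes, WT 2 included, and no test was made of it, since the genes were chosen with earlier results known.

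**Figure D3:**
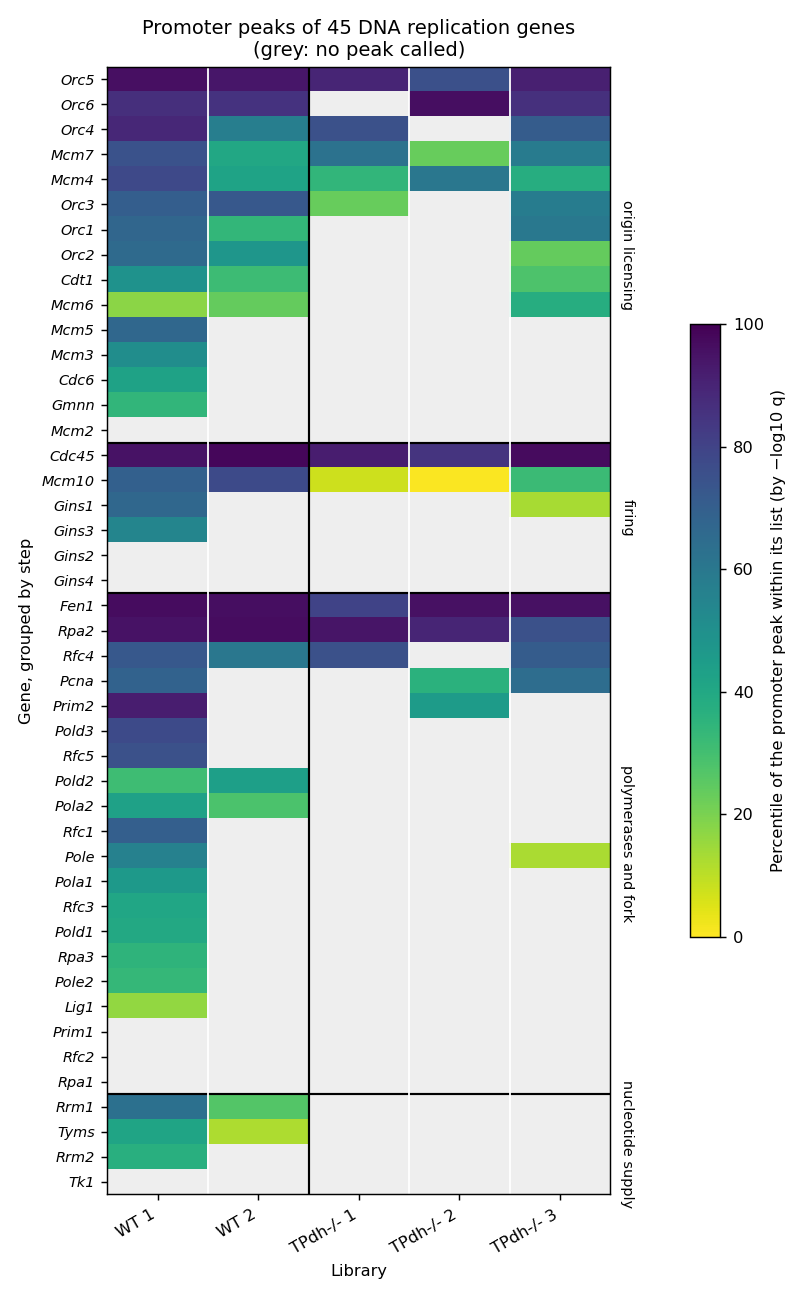
Percentile of the strongest promoter peak within its own list (colour, 0 to 100) for each of the 45 genes (rows, grouped by step and sorted by mean) in the 5 libraries (columns), with grey where no peak was called. WT 1 is filled for 38 genes, and the nucleotide supply genes are grey in all 3 TPdh-/- libraries.

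To compare strength across lists of unequal length, each peak was given its percentile by −log10 q within its own list, and a gene with several promoter peaks was represented by the one of highest −log10 q. The median percentile over the replication genes with a peak was 66.1 in WT 1, 47.4 in WT 2 and 75.2, 67.8 and 59.3 in TPdh-/- 1, 2 and 3. These medians are over different genes in each library, and the lists differ in length. The median over all protein-coding genes with a peak lay between 60.8 and 66.9. The median fold enrichment, the ratio of signal to the background that MACS2 took, was 2.81 to 3.21 for the replication genes and 2.75 to 2.85 for all genes. Among peaks of WT 1, the 15 genes found there alone had a median percentile of 42.5 (range 16.3 to 77.6), the 16 genes found in 2 to 4 libraries one of 66.1, and the 7 found in all 5 one of 95.1. All protein-coding genes were graded in the same order, at 40.4, 66.2 and 89.0.

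Of the 15 genes found in WT 1 alone, 3 ranked within the first 4920 peaks of that list, the length of the shortest list. These were Pold3, a subunit of polymerase delta (percentile 77.6), Rfc5 (75.3) and Rfc1 (69.8), both subunits of the clamp loader. 7 of the 15 ranked within the first 8859, the length of the WT 2 list. The weakest was Lig1, the ligase that joins Okazaki fragments, at percentile 16.3 with a fold of 2.40.

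In origin licensing, 14 of 15 genes had a promoter peak in WT 1 and 10 in WT 2, and 5, 4 and 10 had one in TPdh-/- 1, 2 and 3. This was the step with the largest share in WT 2 (66.7%) and in TPdh-/- 3 (66.7%), and these libraries were equal. All 6 subunits of the origin recognition complex had a peak in both WT libraries. Orc5 was the strongest gene of the step, with percentiles of 96.0 and 93.8 in WT and 89.7, 75.4 and 91.2 in TPdh-/-. Its fold was 3.39 and 3.29 in WT and 3.29, 2.84 and 3.24 in TPdh-/-, so that the lowest WT value lay just above the highest TPdh-/- one. The peak covered the start site of Orc5 (chromosome 5, 22486485 to 22550429, minus strand) in all 5 libraries and was 1052 to 1618 bp wide.

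The other subunits of the complex were found in fewer TPdh-/- libraries. Orc6 had percentiles of 86.5 and 85.2 in WT and 96.2 and 86.3 in TPdh-/- 2 and 3, with no peak in TPdh-/- 1. Orc4 (89.0 and 57.3 in WT) and Orc3 (70.0 and 72.4) were missed in TPdh-/- 2, with percentiles of 75.4 and 23.3 in TPdh-/- 1 and 71.0 and 58.0 in TPdh-/- 3. Orc1, the largest subunit and one that binds ATP, and Orc2 were found in TPdh-/- 3 but in neither of the other TPdh-/- libraries. At Orc6 both TPdh-/- values lay above the lower WT value.

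The Mcm genes, whose products form the ring-shaped helicase, were divided. Mcm4 and Mcm7 had a peak in all 5 libraries. Mcm4 had percentiles of 78.0 and 42.1 in WT and 34.3, 60.3 and 37.5 in TPdh-/-, and Mcm7 had 74.6 and 39.9 in WT and 62.1, 23.1 and 58.4 in TPdh-/-. The groups overlapped at both genes. Mcm3 (percentile 51.2) and Mcm5 (66.8) had a peak in WT 1 alone, and Mcm2 had none in any library. Mcm6 was called in both WT libraries and TPdh-/- 3, at percentiles of 17.5, 23.7 and 37.7, but its peaks lay 97 to 2965 bp downstream of the nearest start site and none overlapped the promoter sequence printed above. With a window of 1000 bp, Mcm6 had a peak in 1 library.

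Of the factors that load the helicase, Cdt1 had a peak in both WT libraries (percentiles 49.1 and 31.5) and in TPdh-/- 3 (28.0). Cdc6 (42.5) and Gmnn, the inhibitor of Cdt1 (34.3), had one in WT 1 alone. Loader and inhibitor were thus both below the median of all genes with a peak in that library, 66.9.

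In origin firing, 4, 2, 2, 2 and 3 of 6 genes had a promoter peak in WT 1 and 2 and TPdh-/- 1, 2 and 3. Cdc45, which joins the Mcm ring and GINS in the active helicase, had the highest mean percentile of all 45 genes. Its percentiles were 95.2 and 98.1 in WT and 91.9, 85.0 and 97.2 in TPdh-/-, with folds of 3.69 and 4.17 in WT and 3.59, 3.28 and 3.85 in TPdh-/-. The groups overlapped, since TPdh-/- 3 lay above WT 1 on both scales. The Cdc45 peak covered the start site (chromosome 16, 18780447 to 18811987, minus strand), which lies near that of Ufd1, a gene of protein degradation.

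Mcm10, which is needed for the helicase to start moving, showed the largest difference of percentile between groups among the 7 genes found in all libraries. Its percentiles were 69.2 and 77.5 in WT and 7.48, 0.554 and 31.7 in TPdh-/-. Its folds were 2.33 and 2.46 in WT and 2.23, 2.12 and 2.13 in TPdh-/-. Every WT value lay above every TPdh-/- value on both scales, but percentile depends on the length of the list. Counted from the top of each list, the Mcm10 peak ranked 4915 in WT 1 and 1997 in WT 2, and 4553, 5390 and 6433 in TPdh-/-, so that TPdh-/- 1 stood nearer the top than WT 1. With a window of 1000 bp, Mcm10 had a peak in 3 libraries. The strongest peak of each library lay inside the gene and covered no annotated start, at 790 to 1270 bp from the nearest one. The centres of these peaks lay 8934 to 9552 bp downstream of the gene start (chromosome 2, 4989714 to 5012791, minus strand). Within 3000 bp of the gene start only WT 1 had a peak, at percentile 31.7 with a fold of 2.40. Of the GINS subunits, Gins1 was called in WT 1 (66.7) and TPdh-/- 3 (13.1, 1929 bp from a start inside the gene). Gins3 was called in WT 1 (54.4), and Gins2 and Gins4 in no library.

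At the polymerases and the fork, 17 of 20 genes had a promoter peak in WT 1, but only 5 in WT 2, and 3, 4 and 5 in the TPdh-/- libraries. WT 2 and TPdh-/- 3 were again equal, and 9 of the 15 genes found in WT 1 alone belong to this step. Fen1, the flap nuclease that trims Okazaki fragments, was the strongest. Its percentiles were 96.6 and 96.3 in WT and 79.7, 95.6 and 95.6 in TPdh-/-, and its folds were 3.62 and 3.88 in WT and 3.30, 3.81 and 3.74 in TPdh-/-. WT percentiles lay above TPdh-/- ones, by a narrow margin in 2 of 3 libraries, while the folds overlapped, as did the ranks from the top of the list (542 and 333 in WT, and 998, 239 and 418 in TPdh-/-).

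Rpa2, of the complex that coats single-stranded DNA, had percentiles of 95.1 and 96.6 in WT and 94.2, 89.5 and 75.0 in TPdh-/-, and folds of 3.71 and 4.02 in WT and 3.87, 3.60 and 3.09 in TPdh-/-. WT lay above TPdh-/- on the first scale and the groups overlapped on the second, as they did by rank from the top of the list (785 and 301 in WT, and 287, 569 and 2353 in TPdh-/-). The other subunits of this trimer differed from it, since Rpa3 had a peak in WT 1 alone (35.0) and Rpa1 in no library. Rfc4 had a peak in 4 libraries, with percentiles of 72.5 and 60.3 in WT and 75.0 and 71.0 in TPdh-/- 1 and 3. Rfc1, Rfc3 and Rfc5 had one in WT 1 alone, and Rfc2 had none. Pcna, the clamp that Rfc loads, was called in WT 1 (68.7) and in TPdh-/- 2 (36.2) and 3 (64.4), but not in WT 2.

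Among the polymerase subunits, Pola2 and Pold2 had a peak in both WT libraries and none of the TPdh-/- ones. Pola2, the B subunit of polymerase alpha, had percentiles of 43.0 and 28.3 and folds of 2.66 and 2.68 in WT. Pold2, the small subunit of polymerase delta, had percentiles of 31.0 and 43.7 and folds of 2.55 and 2.81. All 4 values were below the median percentile of all genes with a peak in their library. Prim2, the large subunit of primase, was called in WT 1 and TPdh-/- 2, with folds of 3.95 and 2.84, and Prim1, the catalytic subunit, in no library. Pole, the catalytic subunit of polymerase epsilon, was called in WT 1 (55.9) and TPdh-/- 3 (12.8), and Pola1, Pold1, Pold3 and Pole2 in WT 1 alone, at percentiles of 33.3 to 77.6.

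In nucleotide supply, 3 of 4 genes had a promoter peak in WT 1, 2 of 4 in WT 2, and 0 of 4 in each of the 3 TPdh-/- libraries. Rrm1, the large subunit of ribonucleotide reductase, had percentiles of 62.9 and 26.7 and folds of 3.15 and 2.66 in WT. Tyms, which makes thymidylate, had percentiles of 41.7 and 12.1 and folds of 2.77 and 2.50. Rrm2, the small subunit of the reductase, was called in WT 1 alone (36.8, fold 2.18), and Tk1, the thymidine kinase, in no library. Both WT values of Tyms came from peaks that began 3 and 173 bp downstream of the nearest start site and did not overlap the promoter sequence printed above. With lists of equal length, none of the 4 genes had a peak in any library, so their absence from TPdh-/- could not be told apart from the shorter lists.

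The class of genes found in both WT libraries and none of the TPdh-/- ones (Pola2, Pold2, Rrm1 and Tyms) was set by which libraries were counted. It held 8 genes without TPdh-/- 3, with Cdt1, Mcm6, Orc1 and Orc2 added, and 19 without WT 2. With lists of equal length it held 0.

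For the 7 genes with a peak in all 5 libraries, WT was compared with TPdh-/- by an exact permutation test over the 10 ways to divide 5 libraries into 2 and 3. The smallest two-sided p this design allows is 0.2, so no gene could pass 0.05. A peak of the same rank has a higher percentile in a longer list, so the percentiles of WT 1, the longest list, are raised against those of the others. Mean percentile was higher in WT by 60.1 at Mcm10, 16.02 at Mcm4, 9.61 at Rpa2 and 9.50 at Orc5. The difference was 9.40 at Mcm7, 6.13 at Fen1 and 5.28 at Cdc45. The exact two-sided p was 0.2 at Mcm10, Rpa2, Orc5 and Fen1 (Benjamini-Hochberg adjusted p = 0.72 over 2390 genes), 0.4 at Mcm4 and Cdc45 (adjusted p = 0.77) and 0.8 at Mcm7 (adjusted p = 0.92). The median difference was 9.50 over the 7 genes and 9.21 over all 2390 genes with a peak in all libraries. A higher percentile in WT was thus not particular to the replication genes. The median difference of log2 fold was 0.11 over the 7 genes and 0.03 over all 2390, and at Mcm7 the mean was lower in WT, with a log2 difference of -0.08.

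All WT percentiles lay above all TPdh-/- percentiles at 4 of 7 genes (Mcm10, Rpa2, Orc5 and Fen1), where 26.4% of the 2390 genes did. By rank from the top of the list, a scale added after the data were seen, this held at 0 of 7 genes, where 8.45% of the 2390 did, and with lists of equal length the percentiles were apart at 0 genes. The mean rank was nearer the top in WT at 5 of 7 genes, where this held for 40.6% of the 2390, and in TPdh-/- at Mcm4 and Mcm7. For fold, all WT values lay above at 2 of 7 genes, Mcm10 and Orc5, where 15.8% of all did. By rank from the top of the list, TPdh-/- lay wholly above WT at 0 of 7 genes, where 411 of the 2390 did. Mcm10, with the largest difference of percentile, was also the only one of the 7 whose common peak lay away from the gene start.

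**Figure D4:**
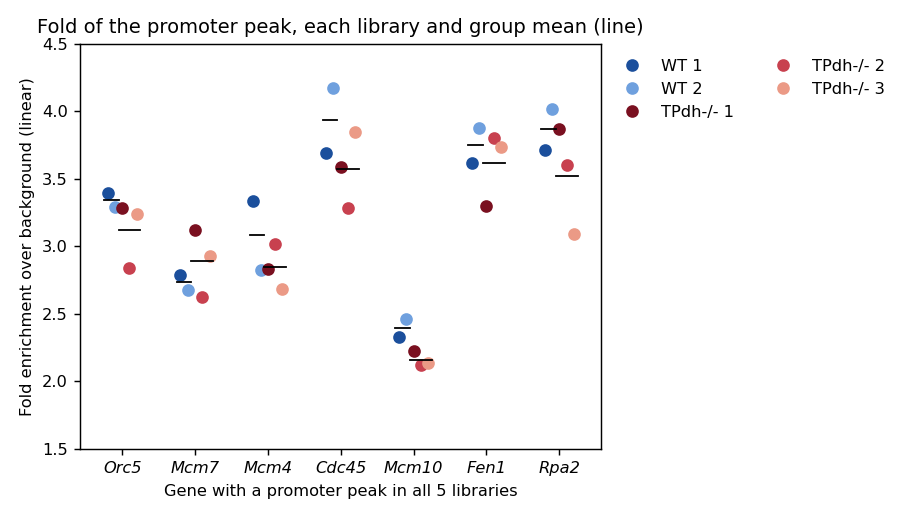
Fold enrichment of the promoter peak (linear, y axis from 1.5) at the 7 genes with a peak in all 5 libraries, 1 point per library (blue WT, red TPdh-/-) with a line at each group mean. The WT and TPdh-/- points overlap at 5 of 7 genes, and at Mcm10 the WT points, 2.33 and 2.46, lie above the TPdh-/- points, 2.12 to 2.23.

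Where a replication gene had a peak, the peak usually lay over a start site. A peak covered an annotated start site at 84.2% of these genes in WT 1, 78.9% in WT 2, and 90%, 80% and 72.2% in TPdh-/- 1, 2 and 3. The share over all protein-coding genes was 71.6% to 81.7%. The median peak was 1232 bp wide in WT 1, 993 bp in WT 2 and 982 to 1043 bp in the TPdh-/- libraries, and the median centre lay between -21.5 and 49 bp from the start.

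**Figure D5:**
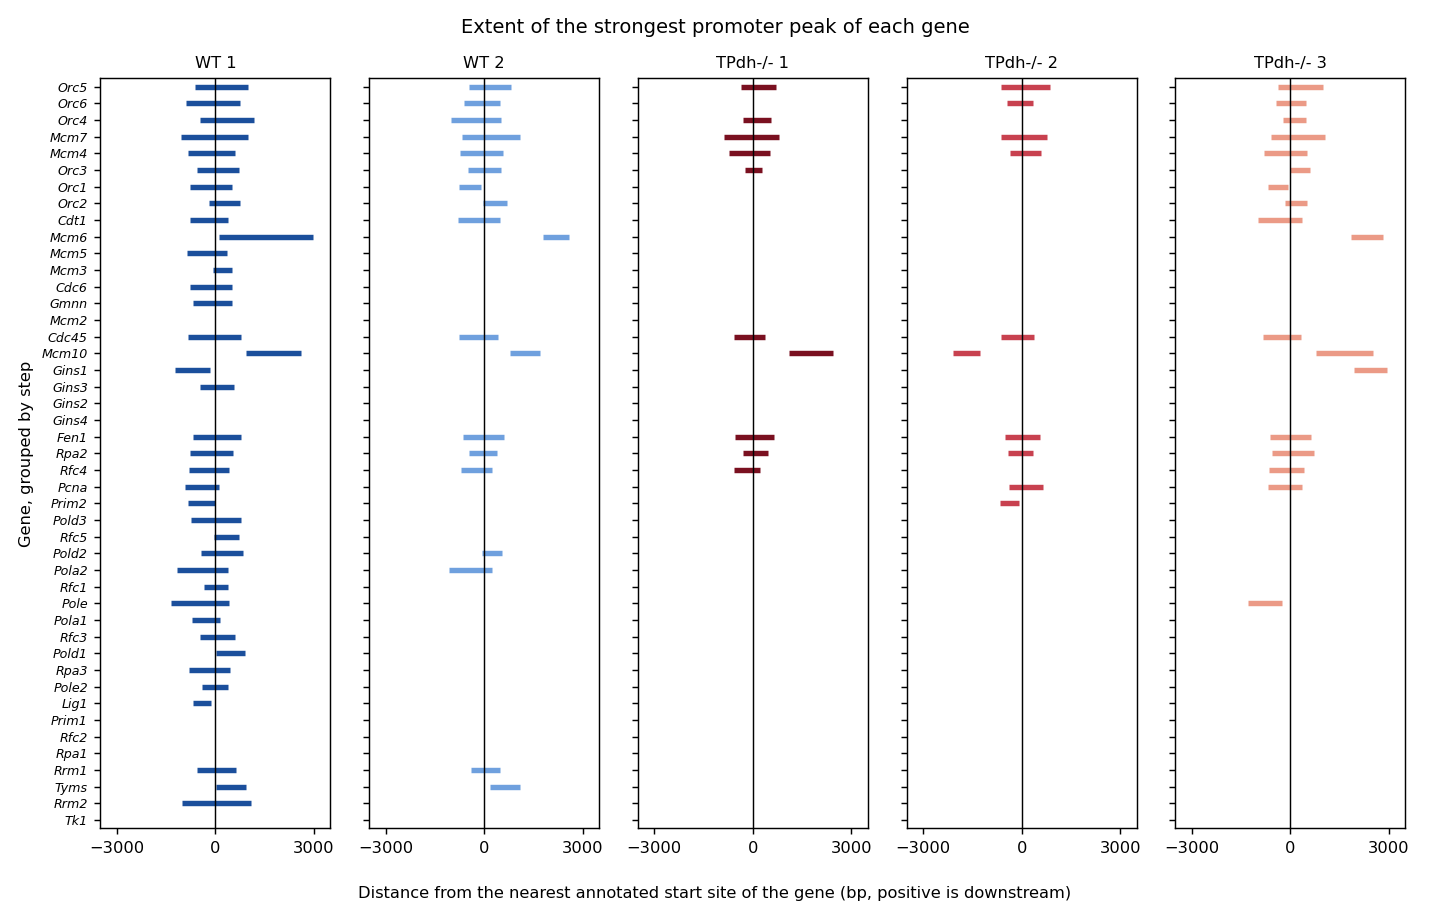
Extent of the strongest promoter peak of each of the 45 genes (rows) relative to the nearest annotated start site (x axis, bp, positive downstream), 1 panel per library, with a line at 0. Most bars span 0, while some, such as those of Mcm6 and Mcm10, lie to the side of it.

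Replication genes often share a promoter with a neighbour. At 15 of the 45 genes (33.3%) another protein-coding gene had a start site within 1000 bp, where 14.6% of all protein-coding genes had such a neighbour. A peak at such a promoter cannot be given to one gene of the pair. Among the pairs were Cdc45 with Ufd1, Fen1 with Tmem258, Mcm4 with Prkdc (the catalytic subunit of a DNA repair kinase), Mcm7 with Ap4m1, Orc6 with Vps35 and Orc1 with Prpf38a. Of these 15 genes, 13 and 8 had a peak in WT and 6, 5 and 10 in TPdh-/-. Of the other 30, 25 and 11 had a peak in WT and 4, 5 and 8 in TPdh-/-. In TPdh-/- 3 these numbers are 66.7% against 26.7%, and among all protein-coding genes 53.8% against 23.5%. In TPdh-/- 1 they are 40% against 13.3%, and among all genes 30.3% against 12.7%. In TPdh-/- 2 they are 33.3% against 16.7%, and among all genes 32.7% against 13.8%. In WT 2 they are 53.3% against 36.7%, and among all genes 47.7% against 20.9%. In WT 1 the replication genes barely differed, at 86.7% against 83.3%, where all protein-coding genes had 75.7% against 36.4%. Of the 7 genes found in all libraries, 4 shared a promoter (Cdc45, Fen1, Mcm4 and Mcm7), where 732 of all 2390 such genes did. Of the 4 found in both WT libraries and none of the TPdh-/- ones, Pola2, Pold2, Rrm1 and Tyms, none did. The share over all genes was not counted for that class.

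Promoter sequence was read for the 37 of the 45 genes that matched the RefSeq promoter table (GRCm38.p6), from 250 bases before to 50 bases after each start. Gins1, Gins2, Gins4, Gmnn, Mcm4, Pole, Prim2 and Rfc2 are not in the table. The E2F letters were present at 15 of 37 genes (40.5%), against 2.61% of all 27025 genes in the table and 3.32% of its protein-coding genes. By step they were present at 8 of 13 licensing genes, 1 of 3 firing genes, 6 of 17 polymerase and fork genes and 0 of 4 nucleotide supply genes. The GC box was present at 75.7% of the replication genes and 51.0% of the protein-coding ones, the CCAAT box at 62.2% and 42.1%, and the CHR letters (TTTGAA or TTCGAA), known from genes of mitosis, at 18.9% and 19.4%. The median number of CpG in the promoter was 23, against 15.

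The genes with the E2F letters were spread unevenly over the patterns of peaks, which was seen only after the values were known. They were 10 of the 14 matched genes found in WT 1 alone (Cdc6, Gins3, Lig1, Mcm3, Mcm5, Pola1, Pold1, Pold3, Pole2 and Rfc3) and 5 of the other 23 (Cdt1, Mcm6, Mcm7, Orc1 and Orc3). 1 of the 6 matched genes found in all libraries held them (Mcm7), and 0 of the 4 with no peak. Among all protein-coding genes the letters were present at 5.81% of those found in WT 1 alone, 5.92% of those found in all libraries and 1.66% of those with no peak. A match of letters describes the sequence and does not show that a factor is bound.

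Other genes of replication, from a list of 47 regulators, accessory factors and nucleotide enzymes, gave similar numbers. A promoter peak was found at 40 and 19 of them in WT and at 8, 11 and 18 in TPdh-/-. 7 had a peak in all 5 libraries, among them Dbf4, which activates the kinase that fires origins, and Timeless, of the fork protection complex. Tipin, the partner of Timeless, had a peak in both WT libraries (82.2 and 44.5) and in no TPdh-/- library, as did Clspn (53.4 and 10.2), an adaptor of the replication checkpoint, Dtl (20.1 and 16.4), which targets Cdt1 for destruction, and E2f2 (59.9 and 52.6). Rnaseh2c, Chtf18, Asf1b, Samhd1, Shmt1, Ccne1 and E2f1 had none. Rrm2b, an alternative small subunit of the reductase, had a peak in all 5 libraries, with percentiles of 75.5 and 81.8 in WT and 63.2, 65.5 and 88.4 in TPdh-/-.

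As a check of the labels, a promoter peak was found at 8 and 5 of 8 CD8 T cell markers in WT and at 2, 4 and 6 in TPdh-/-. 0 of 5 myeloid and 0 of 2 liver markers had one in any library. Pdha1, the targeted gene, had a promoter peak in WT 1 alone (percentile 18.4), so its promoter peak does not mark the genotype of WT 2, and a deletion inside the gene need not remove it.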

How the data were processed

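ChIPseq of acetylated histones was analysed in 5 libraries of TM cells. The authors aligned reads to GRCm38/mm10 with BWA-mem 0.7.17, kept uniquely mapping reads outside blacklisted regions with SAMtools 1.15.1 and called broad peaks with MACS2 2.2.6 library by library. Each deposited peak has its fold enrichment (a linear ratio over the MACS2 background) and the authors' −log10 p and −log10 q for each peak. They hold no read numbers, so the depth is unknown beyond the minimum that the methods state, and no counting interval is given. No input control is named in the sources used here. The authors' differential analysis with DiffBind was not repeated.

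Peaks were assigned to 93513 start sites of 21938 protein-coding genes (GENCODE M21, GRCm38) by an overlap of at least 1 bp with a window of 3000 bp on each side, with Python 3.11.15, numpy 2.4.6 and pandas 2.3.3. The assignment was checked against bedtools 2.31.1, with 0 differing calls, and on simulated peaks, where 2355 of 2355 genes were recovered. Groups were compared by the exact permutation test over 10 assignments, with Benjamini-Hochberg adjustment over 2390 genes.

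The genes and lists were chosen with earlier results of these data known. Genes described with values in each library were, by rule, those of highest and lowest mean percentile in each step (no peak as 0), those in both WT libraries and none of the TPdh-/- ones or the reverse, those in no library, and, of the genes in all 5, the 3 largest and 3 smallest differences. Values of other genes were added after they were seen, and not every gene of the lists is reported here. Alternatives were a 1000 bp window, a minimum −log10 q of 2 or 5, lists shortened to equal length, peak midpoints, the gene start alone, ranking by fold, omission of each library in turn, and a replicate block.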

Additional observations from a re-analysis of the deposited data

How the results depend on the processing

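A missing peak does not show missing acetylation, since the lists differ in length and the reads were not analysed here, and 2 WT libraries against 3 TPdh-/- ones cannot give a significant test. The mean number of replication genes with a peak was higher in WT under each alternative that was run, by 15.8 with the full lists, by 2.5 with lists of equal length, and by 6.33 to 25.3 when a library was left out, lowest without WT 1 and highest without WT 2. With lists of equal length, 4 genes had a peak in all libraries and 0 in both WT libraries and none of the TPdh-/- ones, and the share of all protein-coding genes differed by 1.92 percentage points, against 13.5 with the full lists. Of the 45 single genes, 26 then had a peak in another number of libraries, and 3 did with a 1000 bp window. With a −log10 q of at least 5, 2 genes had a peak in all libraries and 1 in both WT libraries and none of the TPdh-/- ones. The median percentile of the replication genes differed by -10.7 between WT and TPdh-/- with the full lists and by 8.42 with a −log10 q of at least 5, a change of sign whose cause was not tested. The number of genes in both WT libraries and none of the TPdh-/- ones ranged from 4 to 19 when a library was left out, with 19 without WT 2 and 8 without TPdh-/- 3.

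The number of genes whose WT percentiles all lay above the TPdh-/- ones was 4 in the main comparison, 1 with a −log10 q of at least 5, 0 with lists of equal length, 1 when ranked by fold and 0 by rank from the top of the list, an alternative chosen after seeing the data. For fold this number was 2, and it was 1 with a 1000 bp window, with a −log10 q of at least 2, with lists of equal length and with the gene start alone, 0 with a −log10 q of at least 5, and 3 to 5 when a library was left out, with 5 without WT 1. No source says that the replicate numbers pair the libraries. With the replicate number as a block, which leaves out TPdh-/- 3, 8 genes were in both WT libraries and none of the TPdh-/- ones and the mean difference was 18.5 genes, the same values as without that library.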

Other observations

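Genes of mitosis, from a list of 16, were examined beside those of replication. A promoter peak was found at 12 and 7 of them in WT and at 5, 3 and 9 in TPdh-/-. TPdh-/- 3 thus lay above WT 2, as it did for all protein-coding genes (27.9% against 24.8%). Of the replication genes, TPdh-/- 3 had a peak at 18 and WT 2 at 19. With lists of equal length these numbers were 11 and 10. Kif11, a motor of the spindle, and Cenpa, the histone variant of centromeres, had a peak in all 5 libraries. Ccnb1, Plk1, Bub1 and Bub1b had none. Mki67, a marker of proliferation, had a peak in 4 libraries, and was missed in TPdh-/- 1.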
